A study of Homo sapiens with 8 samples.

Results

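The genes described here are 9 regulators and readouts of the Wnt pathway, followed on arrays of 2 Ewing sarcoma cell lines with and without a hairpin against RING1B. They are TMEM88, LGR5, DKK1, DKK2, DKK3, FRZB, AXIN2, SFRP1 and LEF1, taken by name from the annotation of the array, and the probe set of a gene was chosen by its mean level over all 8 arrays, the highest being kept. That mean is the measured value the choice rests on, and it does not use the groups. All 9 were found, each with 1 named probe set, among 14884 genes named on the array. The list was drawn up with earlier results of these data known, so its counts describe these genes and do not stand as independent support.

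A673 and SK-ES1 are established lines of Ewing sarcoma, a bone and soft tissue tumour driven by fusions such as EWSR1-FLI1. RING1B is the ubiquitin ligase of Polycomb repressive complex 1, encoded by RNF2. The 4 groups were A673 shGFP, A673 shRING1B, SK-ES1 shGFP and SK-ES1 shRING1B, with 2 arrays each. Every group therefore carried a hairpin, directed at GFP in the controls and at RING1B in the others. The sources used here give no hairpin sequence, vector or time after delivery, and do not say whether cells were cloned. The labels do not tell whether the arrays of a group are separate cultures, so a p-value here speaks only to the spread of these arrays, which may be technical. RNF2 itself was not analysed here, so the depth of depletion in each line was not checked.

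The values are log2 expression levels, so a difference of 1 is a 2-fold difference, and levels are compared between arrays and not between genes. The array medians lay between 4.01 and 4.10, and no pair of arrays was identical. Of 10 Ewing sarcoma markers 5 were measured, among them CD99 and NKX2-2, and all 5 lay above the median of every array. None of the 2 fibroblast and 3 endothelial markers measured did so, whereas 1 of 2 immune markers (CD68) and 3 of 4 epithelial markers (EPCAM, KRT8 and KRT18) did. The mean of the 2 fibroblast markers ranged from 3.08 to 5.29 over the arrays, with LUM at 2.94 in A673 shGFP and 6.31 in SK-ES1 shGFP. KRT18 stood at 8.80 in A673 shGFP and 9.39 in A673 shRING1B, and at 6.42 and 6.78 in SK-ES1. The part of these markers in the results was not tested.

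In the canonical Wnt pathway, secreted Wnt proteins bind Frizzled receptors with the coreceptors LRP5 and LRP6, and Dishevelled carries the signal to a cytoplasmic complex built on AXIN that otherwise degrades beta-catenin. Stabilised beta-catenin joins TCF and LEF proteins on DNA, and among its usual targets are AXIN2 and LGR5, which feed back on the pathway. Secreted proteins such as DKK1, SFRP1 and FRZB antagonise Wnt at the cell surface, and R-spondins strengthen the signal through LGR receptors. TMEM88 is a membrane protein that binds Dishevelled and dampens the pathway.

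Promoter sequence was at hand for 3 of the 9 genes in RefSeq-derived tables of GRCh38.p14. Those of DKK1 and FRZB are shown because these inhibitors had the widest gap between the lines with the control hairpin, as described further on. Each run is the 250 bases upstream of the annotated start, written 5′ to 3′ on the strand of the gene, at chr10:52314031-52314280 (plus strand) for DKK1 and chr2:182866638-182866887 (minus strand) for FRZB. Capitals mark a match to CTTTGAA, a form of the TCF and LEF recognition sequence.
DKK1: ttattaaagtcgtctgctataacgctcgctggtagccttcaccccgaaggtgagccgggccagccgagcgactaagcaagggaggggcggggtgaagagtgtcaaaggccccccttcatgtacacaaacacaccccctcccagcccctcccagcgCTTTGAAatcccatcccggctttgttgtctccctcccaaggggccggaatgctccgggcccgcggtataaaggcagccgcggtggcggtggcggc
FRZB: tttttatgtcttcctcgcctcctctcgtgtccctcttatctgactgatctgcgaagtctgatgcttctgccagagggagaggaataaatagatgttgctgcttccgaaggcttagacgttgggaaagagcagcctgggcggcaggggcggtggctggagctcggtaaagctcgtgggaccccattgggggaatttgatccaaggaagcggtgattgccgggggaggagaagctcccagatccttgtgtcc

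The motifs were searched on both strands as CTTTGAA and CTTTGAT for TCF and LEF factors and as GGAAGGAA and CCGGAAG for ETS factors, the family of FLI1. The DKK1 window held the 1 match to CTTTGAA shown, and the FRZB window held no match to any of the 4. Over 35116 upstream windows of the same length, 3.80% held CTTTGAA, 2.26% CTTTGAT, 3.06% GGAAGGAA and 8.52% CCGGAAG. DKK1 had 18 CpG dinucleotides in this window and FRZB had 11, against a median of 11 over all windows. The LEF1 entry starts 2631 bases inside the gene as annotated, so it is not shown, and its window held 8 CpG and none of the 4 motifs. These matches describe the letters of the window and show nothing about binding.

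With the RING1B hairpin, 3 of the 9 genes fell in at least 1 line, 2 of them in A673 and 1 in SK-ES1. Over all genes, 3.74% were called in A673 and 0.0672% in SK-ES1. TMEM88, the Dishevelled-binding inhibitor, fell 2.85-fold in A673. LEF1, the DNA-binding partner of beta-catenin, fell 2.23-fold in A673 and had a log2 change of 0.13 in SK-ES1, which was not called. LGR5, the R-spondin receptor, fell 2.21-fold in SK-ES1. For TMEM88 and LGR5 the difference between the lines was not called. None of the 9 rose in either line, and the feedback readout AXIN2 was not called in any comparison by limma, the linear model fitted to all genes.

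**Figure D1:**
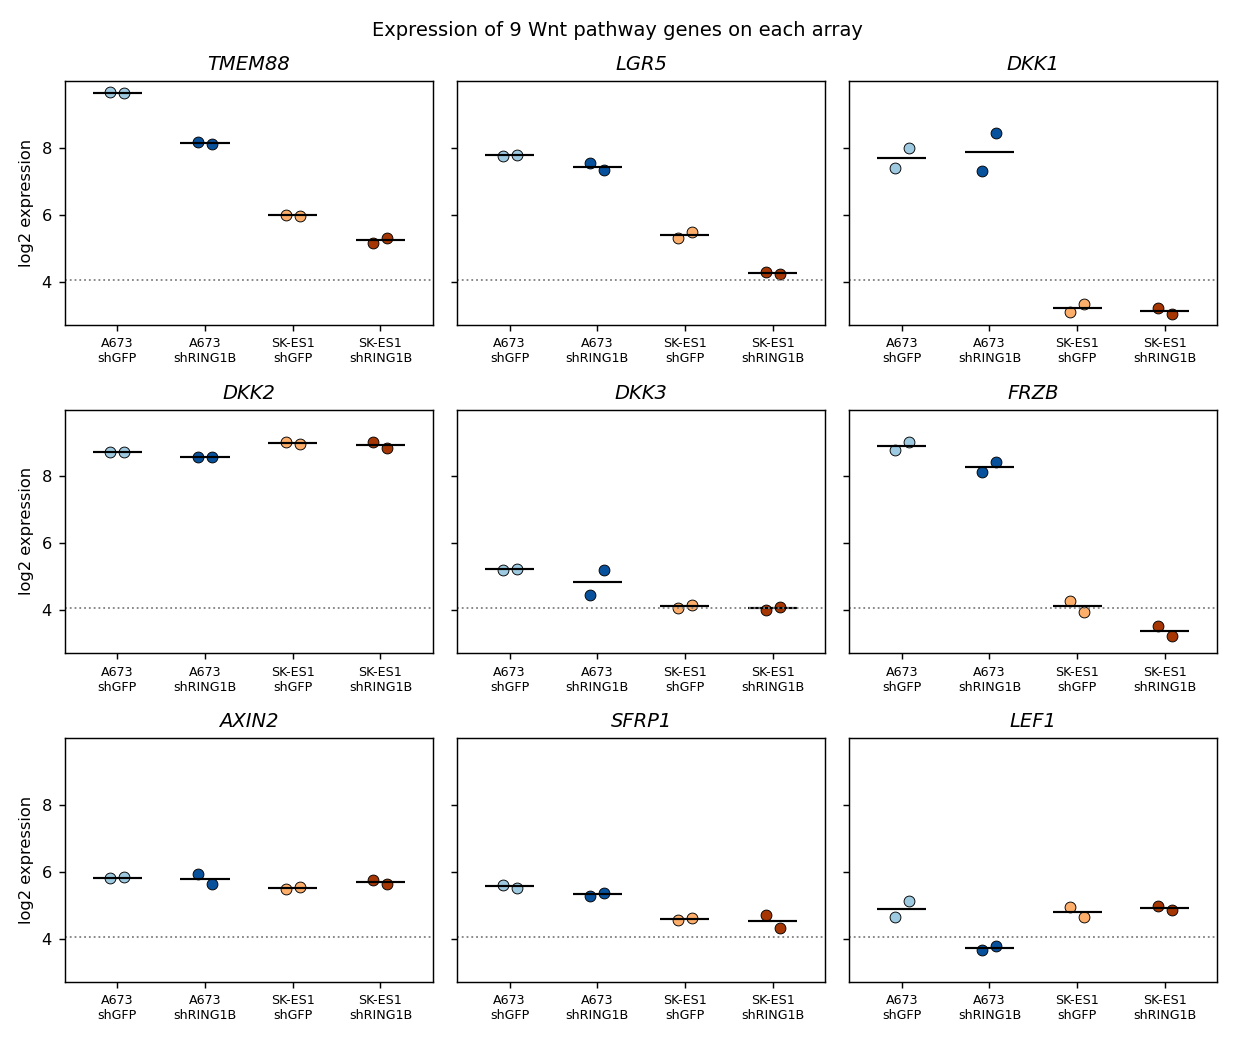
Log2 expression (y axis) of each of the 9 genes on each of the 8 arrays, by group (x axis); points are arrays, bars are means of 2 arrays, and the dotted line is the median of all probe sets (4.06). TMEM88 and LGR5 are lower with the RING1B hairpin in both lines, called in A673 for TMEM88 and in SK-ES1 for LGR5. For neither gene was the difference between the lines called. LEF1 drops in A673 (from 4.88 to 3.73), and DKK1 and FRZB are high in A673 and low in SK-ES1.

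Of the cytoplasmic regulators, TMEM88 had the smallest p of the 9 genes in A673. Its levels in A673 were 9.66 and 9.62 with shGFP and 8.16 and 8.10 with shRING1B, and in SK-ES1 they were 6.0 and 5.98 with shGFP and 5.17 and 5.29 with shRING1B. In both lines every RING1B array lay below every control array. In A673 the log2 change was -1.51 (standard error 0.11, adjusted p = 0.000295 by limma), which ranked 4 by p among the 14884 genes. The A673 call held under each of the 14 alternatives run, with an adjusted p of at most 0.00978. Those without an SK-ES1 array leave the log2 change as it is and alter only the estimate of the spread.

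In SK-ES1 the log2 change of TMEM88 was -0.76 (95% interval -1.0 to -0.51), with an adjusted p of 0.0525 by limma, just short of the threshold of 0.05. It ranked 11 by p in that line, next after the 10 genes that were called. It was called in 3 of 14 alternatives, at 0.0486 with the mean of a gene's probe sets, 0.0211 with the filter on low values and 0.00214 with the trended robust variance, and the highest adjusted p was 0.387 without SK-ES1 shRING1B replicate 1. The effect in SK-ES1 minus that in A673 was 0.75 (adjusted p = 0.0611), so a smaller fall in SK-ES1 was not called. Averaged over both lines, a comparison added after the values were seen, TMEM88 changed by -1.13 with a standard error of 0.0776 (adjusted p = 0.00067) and ranked 1 by p among all genes. With each array left out in turn it remained called in that average.

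AXIN2, the scaffold of the degradation complex and a standard readout of beta-catenin activity, moved little. In A673 it stood at 5.82 and 5.83 with shGFP and at 5.93 and 5.64 with shRING1B, and in SK-ES1 at 5.49 and 5.54 against 5.74 and 5.62. The groups overlapped in A673, while in SK-ES1 both RING1B arrays were the higher. The 95% intervals of the log2 change in A673 ran from -0.32 to 0.24, and in SK-ES1 from -0.11 to 0.45, so these data leave room for a change of that size in either line. The adjusted p was 0.898 in A673 and 0.851 in SK-ES1.

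LGR5 was the receptor on the list. In SK-ES1 it went from 5.31 and 5.50 with shGFP to 4.29 and 4.23 with shRING1B, and in A673 from 7.75 and 7.79 to 7.53 and 7.35. The RING1B arrays were below the controls in both lines, by far more in SK-ES1, where the level ended near the array median. The log2 change in SK-ES1 was -1.15 with a standard error of 0.122 (adjusted p = 0.00824), and in A673 it was -0.33 (adjusted p = 0.179). Its SK-ES1 call was lost without any 1 of the 4 SK-ES1 arrays, at an adjusted p of 0.0503 without shGFP replicate 1, 0.108 without shGFP replicate 2, 0.11 without shRING1B replicate 1 and 0.133 without shRING1B replicate 2. The difference between the lines was -0.82 (adjusted p = 0.0654), which was not called. The average over both lines was -0.74 (adjusted p = 0.00501) and remained called with each array left out.

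LEF1 was the 1 gene of the 9 whose response was called different between the lines. In A673 it went from 4.64 and 5.12 with shGFP to 3.67 and 3.78 with shRING1B. In SK-ES1 it stood at 4.93 and 4.65 with shGFP and at 4.98 and 4.87 with shRING1B. The A673 groups did not overlap and the RING1B arrays lay under their array medians, so the size of the fall may be understated, whereas the SK-ES1 groups overlapped and all 4 arrays lay above theirs.

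The A673 log2 change of LEF1 was -1.16 with a standard error of 0.165 (adjusted p = 0.00522), and the SK-ES1 change was 0.13 (95% interval -0.24 to 0.50). The difference of the effects, SK-ES1 minus A673, was 1.28 with a standard error of 0.234 (adjusted p = 0.0431). With the control hairpin the lines were close, at 4.88 ± 0.336 in A673 and 4.79 ± 0.197 in SK-ES1 (SD, n = 2). The A673 fall was called in 13 of 14 alternatives and had an adjusted p of 0.0508 without A673 shGFP replicate 2. The difference between the lines was called in 4 of 13 alternatives. Its adjusted p was 0.0557 with quantile normalization repeated and 0.0671 with cyclic loess. Without A673 shGFP replicate 2 it was 0.152, and without A673 shRING1B replicates 1 and 2 it was 0.0951 and 0.0723. Without SK-ES1 shGFP replicates 1 and 2 it was 0.0949 and 0.135, and without SK-ES1 shRING1B replicates 1 and 2 it was 0.159 and 0.125.

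**Figure D2:**
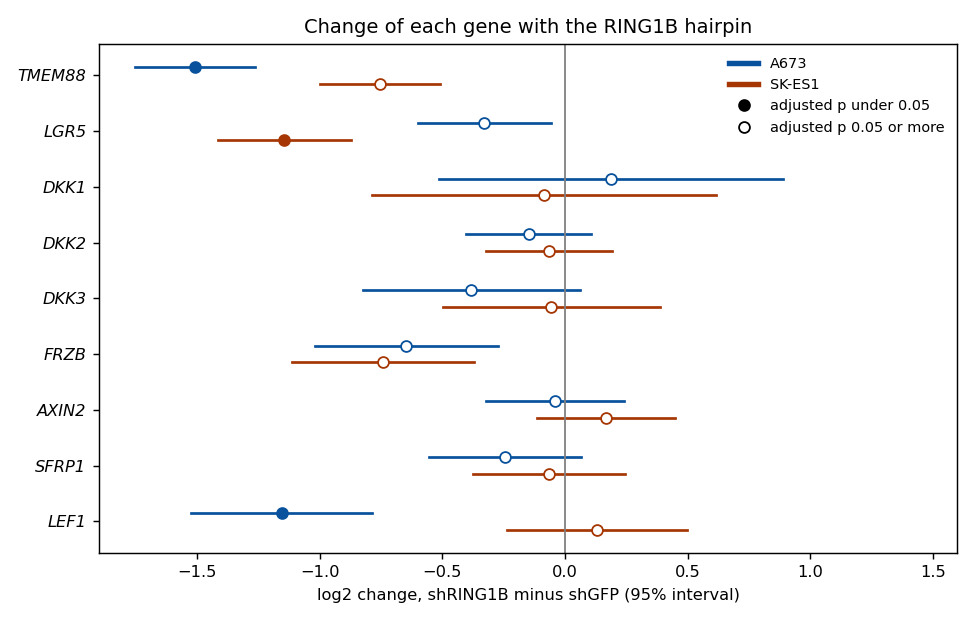
Log2 change with the RING1B hairpin (x axis, shRING1B minus shGFP) for each of the 9 genes (y axis) in A673 and SK-ES1, with 95% intervals from limma (2 arrays a group); filled points have an adjusted p under 0.05. TMEM88 and LEF1 are filled in A673 (-1.51 and -1.16) and LGR5 in SK-ES1 (-1.15), and FRZB lies at -0.65 and -0.74 in the 2 lines.

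Among the secreted inhibitors, FRZB is a soluble Frizzled-like protein that binds Wnt. It went from 8.80 and 9.03 to 8.12 and 8.42 in A673, and from 4.29 and 3.96 to 3.53 and 3.23 in SK-ES1. The RING1B arrays lay below the controls in both lines, and in SK-ES1 both lay below their array medians. The log2 changes were -0.65 (adjusted p = 0.0667) and -0.74 (adjusted p = 0.29), neither of them called, and their difference was -0.09 (95% interval -0.62 to 0.43). In A673 it was called in 2 of 14 alternatives, at an adjusted p of 0.0407 with the filter on low values and 0.0174 with the trended robust variance, and the highest was 0.378 without A673 shGFP replicate 2. In SK-ES1 it was called in 0 of 14. The average over both lines, the comparison added later, was -0.70 with a standard error of 0.118 (adjusted p = 0.021). Leaving out 1 array took the adjusted p past the threshold in 4 cases, namely 0.117 for A673 shGFP replicate 2, 0.0679 for A673 shRING1B replicate 1, 0.0902 for SK-ES1 shGFP replicate 1 and 0.104 for SK-ES1 shRING1B replicate 2.

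The DKK genes and SFRP1 were not called in either line. DKK1, a secreted antagonist that binds LRP5 and LRP6, varied widely in A673, with 7.39 and 7.99 under shGFP and 7.30 and 8.45 under shRING1B. Its log2 change there was 0.19 with a 95% interval of -0.51 to 0.89, and without A673 shRING1B replicate 2 it was -0.39, so no direction is given. DKK2, its close relative, was steady and high, at 8.73 and 8.72 against 8.58 and 8.57 in A673 and at 9.02 and 8.97 against 9.03 and 8.83 in SK-ES1. The A673 groups did not overlap, but the gap of -0.15 was not called (adjusted p = 0.539).

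DKK3, a divergent member of the DKK family, stood at 5.20 and 5.24 in A673 shGFP and at 4.47 and 5.21 in A673 shRING1B. The A673 groups overlapped, since 1 RING1B array was at the level of the controls, and the log2 change was -0.75 without A673 shRING1B replicate 2 (adjusted p = 0.0263) and -0.01 without replicate 1 (adjusted p = 0.984). SFRP1, a soluble Wnt-binding inhibitor, had log2 changes of -0.25 (adjusted p = 0.387) in A673 and -0.07 (adjusted p = 0.959) in SK-ES1. The SFRP1 arrays were 5.62 and 5.52 against 5.27 and 5.37 in A673, which did not overlap, and 4.56 and 4.61 against 4.71 and 4.32 in SK-ES1, which did.

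Against the background of each comparison, the 9 genes numbered 2 called of 9 in A673, where limma called 3.74% of all genes, and 1 of 9 in SK-ES1, where it called 0.0672%. For the difference between the lines it was 1 of 9 against 0.786%, and for the average over both lines 3 of 9 against 1.36%. All of the calls in A673, in SK-ES1 and in the average were falls, and over all genes falls were 3.04%, 0.0672% and 1.24%. In A673 8 of the 9 log2 changes lay below 0 with a median of -0.33, against 47.8% and 0.01 over all genes, and in SK-ES1 7 of 9 with a median of -0.07, against 51.0% and -0.0039. The RING1B arrays all lay below the controls for 6 of the 9 genes in A673 and 3 in SK-ES1, against 23.8% and 19.3% of all genes. Some of these genes may have been listed because they had moved, so these shares are descriptive.

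Of 128 listed Wnt pathway genes 84 had a named probe set, the 9 genes included, and of the 75 others 6 fell and 0 rose in A673 (8.00% called, against 3.74% of all genes). Their median log2 change was -0.02, with 41 of 75 below 0. With the trended robust variance, an alternative described below, 9 of the 75 fell and 4 rose. Of all 14884 genes 707 fell and 345 rose with that variance. In SK-ES1 0 of the 75 were called by limma, 7 had an unadjusted p under 0.05, and the median was 0.03. Only 2 of 21 listed ligand and secretion genes were measured, so the Wnt ligands were mostly not analysed here. For the difference between the lines 0 of the 75 were called, with 15 at an unadjusted p under 0.05.

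The 6 falls in A673 were spread over the roles. AMER1, a membrane-linked partner of the degradation complex, went from 6.31 and 6.05 to 5.20 and 5.18, a log2 change of -0.99 (adjusted p = 0.00754). Among 14 cytoplasmic genes it was joined by CXXC4, a Dishevelled-binding inhibitor like TMEM88, which changed by -0.79 (adjusted p = 0.0318). These 14 genes had a median of -0.13, and 12 of them lay below 0. AMER1 missed the threshold only without A673 shGFP replicate 1 (0.051). The call of CXXC4 was lost in 4 of 14 alternatives, most clearly without A673 shGFP replicate 2 (0.249).

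DRAXIN, a secreted Wnt antagonist and axon guidance protein, went from 7.22 and 6.92 to 6.32 and 6.02, a change of -0.89 (adjusted p = 0.0121). It was the called member of 14 genes listed as secreted inhibitors, whose median was 0.03. Its call was lost in 3 of 14 alternatives, 1 of them without A673 shGFP replicate 1, where the change was -0.75. SP8, a zinc-finger factor of limb and brain development, fell by 1.04 among 15 target genes (adjusted p = 0.0354). ROR1, a receptor kinase for WNT5A, fell by 0.62 among 16 receptors (adjusted p = 0.0383), and PYGO1, a beta-catenin coactivator, by 0.48 among 6 nuclear factors (adjusted p = 0.0414). Of the 6 calls these 3 were the least stable. SP8 lost its call in 8 of 13 alternatives, ROR1 in 7 of 14 and PYGO1 in 10 of 14, and the highest adjusted p was 0.249 for SP8 and 0.236 for ROR1 (both without A673 shGFP replicate 2) and 0.188 for PYGO1 (without A673 shGFP replicate 1). None of the 8 other R-spondin axis genes was called by limma in A673, where 0 of them had an unadjusted p under 0.05. None of the 8 was called in SK-ES1 either. There LGR4 had the lowest log2 change of the 75 others, -0.54 (adjusted p = 0.23 by limma).

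**Figure D3:**
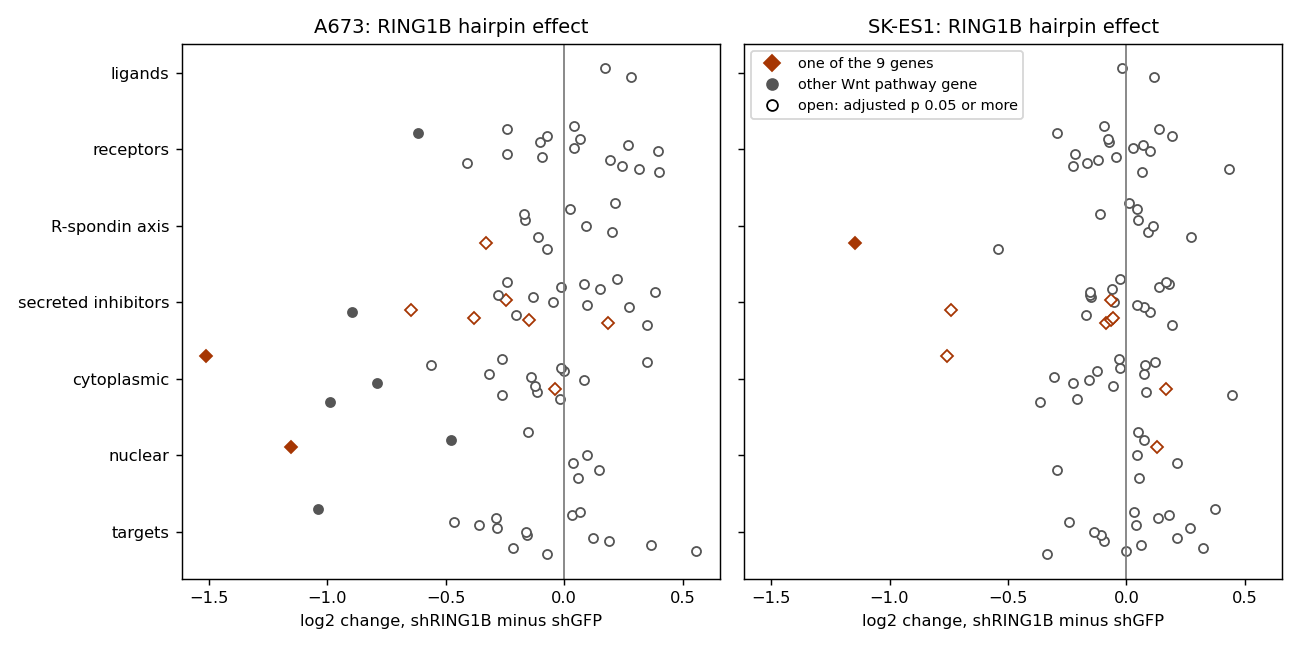
Log2 change with the RING1B hairpin (x axis) of 84 Wnt pathway genes by role (y axis) in A673 (left) and SK-ES1 (right); diamonds are the 9 genes, circles the 75 others, and filled symbols have a limma adjusted p under 0.05. The 8 filled symbols in A673 all lie below 0, and in SK-ES1 LGR5 is the only filled symbol.

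The SK-ES1 values of these 6 genes were -0.36 for AMER1, -0.23 for CXXC4, 0.10 for DRAXIN, 0.37 for SP8, -0.29 for ROR1 and 0.07 for PYGO1, none of them called. None of the 6 differences between lines was called, with the smallest adjusted p at 0.0671 for DRAXIN and 0.0842 for SP8. DRAXIN in SK-ES1 stood near the array median with either hairpin, at 3.96 and 4.18 with shGFP. SP8 lay under the median of every SK-ES1 array, at 3.39 and 3.53 with shGFP and 3.76 and 3.91 with shRING1B. AMER1 was also called in the average over both lines, at -0.68 (adjusted p = 0.0152), and lost that call in 4 of 13 alternatives, most clearly without SK-ES1 shRING1B replicate 1 (0.077).

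With the control hairpin, more genes differed between the lines than between hairpins, and the inhibitors FRZB, DKK1 and TMEM88 had the largest measured gaps of the 9. FRZB was 27.8-fold and DKK1 22.2-fold lower in SK-ES1 than in A673, and TMEM88 was 12.6-fold lower. The SK-ES1 levels of FRZB and DKK1 lay around or under the array medians and no detection calls were used, so these folds may understate the gaps and their order is not settled. LGR5 was 5.15-fold, DKK3 2.16-fold and SFRP1 1.98-fold lower. DKK2, AXIN2 and LEF1 were not called, with log2 differences of 0.27, -0.31 and -0.09. In all 6 of the 9 genes were called and all 6 were lower in SK-ES1, where limma called 30.7% of all genes and 17% of all genes as lower. Each of these 6 was called in all 14 alternatives.

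FRZB stood at 8.92 ± 0.168 in A673 shGFP and 4.12 ± 0.232 in SK-ES1 shGFP (SD, n = 2), a log2 difference of -4.79 (adjusted p = 3.32e-08). DKK1 stood at 7.69 ± 0.423 and 3.21 ± 0.164, a difference of -4.48 (adjusted p = 3.05e-06). All 4 SK-ES1 arrays had DKK1 below their median, where 21.4% to 30.0% of probe sets lay at or under it, toward the low end of the arrays. TMEM88 stood at 9.64 ± 0.0278 and 5.99 ± 0.0173 (adjusted p = 1.60e-08), and LGR5 at 7.77 ± 0.0338 and 5.40 ± 0.134 (adjusted p = 3.40e-07). DKK3 was at 5.22 ± 0.0222 against 4.11 ± 0.0448 (adjusted p = 0.00179) and SFRP1 at 5.57 ± 0.0687 against 4.58 ± 0.0374 (adjusted p = 0.000406).

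The group means of TMEM88, LGR5, FRZB, SFRP1 and DKK3 ran from A673 shGFP down through A673 shRING1B and SK-ES1 shGFP to SK-ES1 shRING1B. Of the neighbours in that order, the 2 A673 groups did not differ beyond the threshold for LGR5, FRZB, SFRP1 and DKK3, nor did the 2 SK-ES1 groups for TMEM88, FRZB, SFRP1 and DKK3. The means of DKK1 were higher in both A673 groups than in both SK-ES1 groups, with no difference called between hairpins. A673 shRING1B against SK-ES1 shGFP was not tested. For LEF1, A673 shRING1B alone stood low, at 3.73 ± 0.0732 against means of 4.79 to 4.92 in the other 3 groups. DKK2 ranged from 8.58 to 9.0 and AXIN2 from 5.52 to 5.82 over the group means, with no comparison called. Between the lines DKK2 was called in 1 of 14 alternatives, the trended robust variance, at an adjusted p of 0.0247 by limma.

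Among the 75 other pathway genes 33 (44.0%) were called between the lines, 10 higher and 23 lower in SK-ES1, against 30.7% of all genes. The cytoplasmic genes leaned to A673, with 9 of 14 lower and 0 higher in SK-ES1 and a median of -0.51. Those with the smallest p were the Dishevelled-binding NKD2 at -1.13, PRICKLE1 of planar polarity at -0.70, the ubiquitin ligase subunit BTRC at -0.60 and the formin DAAM1 at -0.73. Receptors went both ways, 3 higher and 6 lower. Of the Frizzled receptors FZD7, FZD6 and FZD5 were higher in SK-ES1 by 1.82, 1.46 and 0.95. FZD2, FZD8 and FZD3 were called lower, at -0.76, -0.57 and -0.54. The WNT5A receptor kinase ROR2 was at -2.10.

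The list of secreted inhibitors, which also holds membrane proteins such as APCDD1, had 14 other genes. These were split as well, 3 higher and 3 lower. DRAXIN followed FRZB and DKK1 with -3.00 (adjusted p = 2.83e-07), whereas NOTUM, an enzyme that strips the lipid from Wnt, was higher in SK-ES1 by 1.71 (adjusted p = 2.39e-05). APCDD1 was at -0.78 and SFRP5 at 0.64. The R-spondin receptor LGR4 was at -0.72, the Wnt secretion factor WLS at -0.82 and the beta-catenin coactivators BCL9 and PYGO1 at -0.84 and 0.98. Of the 15 target genes 3 were higher and 2 lower, with MYC at 0.87, MSX1 at 0.68, BMP4 at -0.68 and SP8 at -1.50. Of the pathway genes followed through the alternatives, MSX1 lost its call without A673 shGFP replicate 2, at a difference of 0.58. SFRP5 lost its call without SK-ES1 shGFP replicate 1, at a difference of 0.54.

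**Figure D4:**
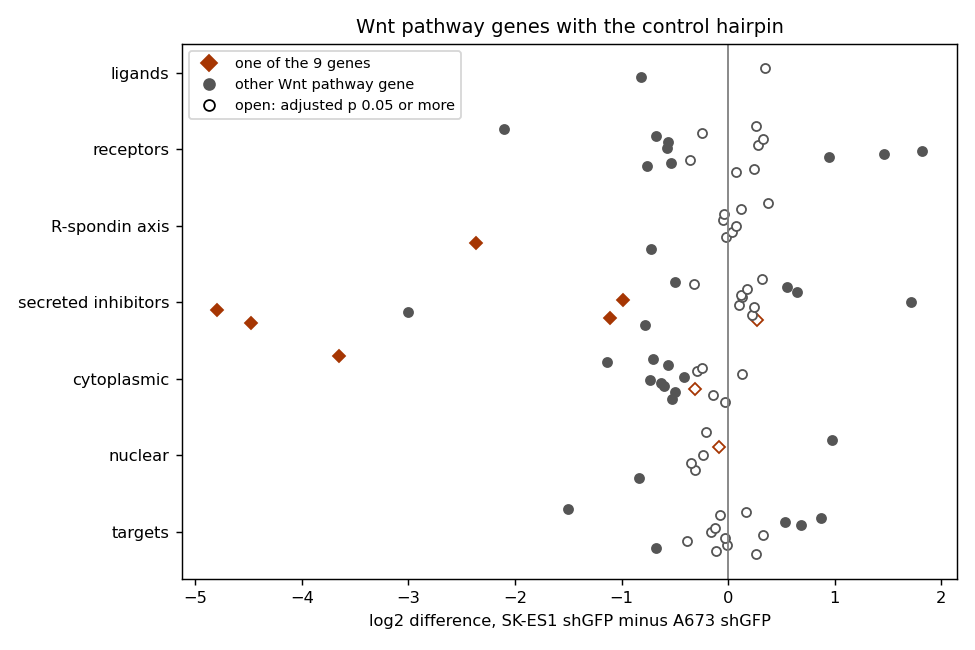
Log2 difference between the lines with the control hairpin (x axis, SK-ES1 shGFP minus A673 shGFP) of 84 Wnt pathway genes by role (y axis); diamonds are the 9 genes, circles the 75 others, and filled symbols have a limma adjusted p under 0.05. FRZB, DKK1 and TMEM88 lie furthest to the left, at -4.79, -4.48 and -3.65, and the cytoplasmic genes lie mostly below 0.

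The genes most like each of the 3 called ones were found by the root mean square difference over the 8 arrays, after centring each gene on its own mean. For LEF1 these were LPAR3 (0.113), RNF157 (0.148) and HS6ST2 (0.152), which had log2 changes of -0.96, -0.92 and -0.87 in A673 and 0.17, 0.01 and 0.22 in SK-ES1. These genes were chosen for their likeness, so a shared pattern is no separate result. For TMEM88 they were the chemokine CCL2 (0.33), SESN3 (0.332) and HAPLN1 (0.353). All 3 fell in A673, by 0.88, 1.93 and 1.28 on the log2 scale (adjusted p = 0.0114, 0.00174 and 0.00102 by limma), and none was called in SK-ES1, where the changes were -0.70, -0.35 and 0.13. Their log2 differences between the lines with the control hairpin, SK-ES1 minus A673, were -3.79, -4.09 and -3.78, and that of TMEM88 was -3.65. For LGR5 they were OGFRL1 (0.32), PCDHB2 (0.346) and STC1 (0.365). Their SK-ES1 changes were -0.58, -0.40 and -0.31, none of them called. With the control hairpin their log2 differences, SK-ES1 minus A673, were -2.80, -2.25 and -2.52.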

How the data were processed

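Total RNA (30 ng per sample, per the labels) was measured on 8 Affymetrix arrays. The deposited values are log2 expression per probe set; RMA and limma are named in the submitters' processing notes, with no version. RMA brings all arrays to 1 distribution, which hides any shift common to most genes. The array version and genome build are not given in the sources used here. With no scanner signal used, precision is limited by the number of arrays.

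Of 48144 probe sets, 16098 (33.4%) had 1 gene symbol, 0 several and 32046 were unnamed here; 14884 genes were each represented by the probe set with the highest mean. With limma 3.58.1 (R 4.3.3), 4 group means were modelled over the 8 arrays (4 residual and 6.0 prior degrees of freedom). P-values are two-sided and adjusted by Benjamini-Hochberg over all genes of a comparison, and a gene is called, or said to rise or fall, under 0.05. Ranges written with ± are SDs of 2 arrays. The fit was tested on simulated data.

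The members, the lists and the tests were chosen with earlier results of these data known. Named genes are the 9 members, other Wnt list genes called with a hairpin and up to 4 per list called between lines. Also named are 3 genes nearest each called member, and FZD2, FZD3 and FZD8. These 3 receptors were called between lines and were not followed through the alternatives. The average over lines was added after the values were seen. Alternatives were repeated quantile normalization, cyclic loess, the mean of a gene's probe sets, a filter on low values and a trended robust variance. The others were the 4 arrays compared alone and each array left out. Many of these leave the log2 change of a comparison as it is, and alter only the spread or the number of genes tested. Leaving out either array of a group outside a comparison gives the same result for it. Tallies of alternatives therefore do not count independent checks.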

Additional observations from a re-analysis of the deposited data

Results flagged for a closer look

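LEF1 was marked because its response to the RING1B hairpin differed between the lines by the test of the difference itself, at 1.28 on the log2 scale (limma adjusted p = 0.0431). The difference was 1.05 to 1.52 with 1 array left out, always in the same direction, and its adjusted p over the 13 alternatives ran from 0.014 to 0.159.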

How the results depend on the processing

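No paired analysis was run, because the labels give the arrays no replicate numbers shared between groups. Replicates 1 and 2 were numbered here in sample order, only to name the arrays. Whether arrays of the same number belong together is not known, and a fit paired by that order was not tested. Depth does not apply to arrays. Levels around or under the array median limit what could be seen for DKK1, FRZB, DKK3, DRAXIN and SP8 in SK-ES1. The same holds for LGR5 in SK-ES1 shRING1B and for LEF1 and SP8 in A673 shRING1B. Of 1211 values of named genes recomputed under the alternatives, 1106 kept their direction and their side of the threshold, 24 turned direction, 57 lost a call and 24 gained one. With the trended robust variance, 3 of the 9, 13 other Wnt pathway genes and 1052 genes in all were called in A673. Of these 13 others 4 rose and 9 fell. In SK-ES1 that variance gave 2 of the 9 and 34 genes. It gave 3 of the 9, 2 others and 281 genes for the difference, and 5 others and 481 genes for the average. Between the lines it gave 7 of the 9, 1 of them higher and 6 lower in SK-ES1, with 38 others and 4964 genes. With the filter on low values, 3 of the 9 and 762 of the 10852 genes kept were called in A673. Of the 63 others kept 1 rose and 6 fell. The filter gave 2 of the 9 and 21 genes in SK-ES1. It gave 3 of the 9, 1 other and 179 genes for the difference, and 3 others and 337 genes for the average. The mean of a gene's probe sets gave 2 of the 9 and 14 genes in SK-ES1. Repeated quantile normalization and cyclic loess gave 0 of the 9 for the difference, with 95 and 78 genes in all. The 4 A673 arrays alone gave 1 other gene and 213 genes in all. The cause of these shifts was not tested, apart from the filter, which tests fewer genes, and the 4 arrays, which are fewer samples.

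With each array left out, the count over the 9 genes was 1 to 3 in A673, 0 to 1 in SK-ES1, 0 to 1 for the difference and 2 to 4 for the average. Over the 75 others it was 2 to 4 in A673, 0 to 1 for the difference and for the average, and 26 to 35 between the lines. Over all genes it was 101 to 434 in A673, 2 to 7 in SK-ES1, 0 to 72 for the difference, 51 to 158 for the average and 3160 to 4674 between the lines. Each direction that turned belonged to a value that was not called. AXIN2 in A673 was 0.0171 with quantile normalization repeated. With 1 array left out, the ranges in A673 were -0.19 to 0.10 for AXIN2 and -0.39 to 0.76 for DKK1. In SK-ES1 they were -0.20 to 0.0303 for DKK1, -0.17 to 0.0362 for DKK2, -0.26 to 0.13 for SFRP1, -0.0093 to 0.27 for LEF1 and -0.01 to 0.21 for DRAXIN. For the difference they were -0.85 to 0.30 for DKK1, -0.0179 to 0.18 for DKK2, -0.0453 to 0.70 for DKK3, -0.26 to 0.0702 for FRZB and -0.0133 to 0.37 for SFRP1. Between the lines LEF1 ranged from -0.32 to 0.15, and for the average DKK1 ranged from -0.24 to 0.34 and AXIN2 from -0.0087 to 0.14.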
